A study of Mus musculus with 15 samples.

Results

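Complex I (NADH:ubiquinone oxidoreductase) is the largest enzyme of the mitochondrial respiratory chain. It takes electrons from NADH in its N module, passes them along iron-sulfur clusters to ubiquinone in its Q module, and pumps protons through a membrane arm with a proximal and a distal part. Most of its subunits are encoded in the nucleus by genes named Nduf, 7 hydrophobic subunits are encoded by mitochondrial DNA (mt-Nd genes), and assembly factors named Ndufaf help to build the enzyme without staying in it. Heart muscle is packed with mitochondria, and its RNA is rich in transcripts of this enzyme.

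The genes described here are the protein-coding rows of the deposited expression table whose symbol begins with Nduf, 46 of 54532 genes. They comprise 36 nuclear-encoded subunits, 8 Ndufaf assembly factors, and the pair Ndufa4 and Ndufa4l2. Ndufa4 carries an Nduf name but its protein is now assigned to cytochrome c oxidase, and Ndufa4l2 is its paralog, so this pair was kept apart. All 46 genes passed the filter on low values (at least 1 FPKM in at least 5 libraries). FPKM counts fragments relative to the gene's length and to a scaling total of the library. The subunit B1 gene is entered in the table under the symbol Ndufb1-ps as a long non-coding RNA and falls outside the rule, as do 4 processed pseudogenes.

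The libraries are poly-A RNA sequencing of left ventricle from female C57BL/6JRj mice aged 12 to 18 weeks, read as paired ends of 150 nt. The 5 Sham libraries come from mice operated without an infarct and given vehicle (20% Captisol). The 5 MI libraries come from mice with the left descending coronary artery tied off for good and the same vehicle. The 5 GSK libraries come from infarcted mice injected intraperitoneally each day with 20 mg/kg of GSK-343 in 20% Captisol. GSK-343 is an inhibitor of the histone methyltransferase EZH2. In all groups the injections began 6 h after surgery and ended on day 7. Tissue was taken on day 8 in all groups. Sham replicates 1 and 2 each mix RNA of 2 mice. No library isolates a cell type, so the values are those of the mixed ventricle, in which fewer cells of a type and less RNA per cell cannot be told apart.

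Assigned fragments per library numbered 21.5 M to 26.8 M, and each value of these 46 genes rests on 157 to 29185 fragments. The tissue label was checked against markers of heart muscle: the 10 cardiomyocyte markers summed to 19260 to 24759 FPKM in Sham, with none at 0 in any library. A set of 3 libraries stood apart by the share of FPKM taken by mitochondrially encoded genes. That share was 41.2% to 42.2% in Sham, 23.2% to 27.6% in 4 MI libraries but 40.6% in MI replicate 4, and 31.8% to 32.7% in 3 GSK libraries but 46.4% and 48.7% in GSK replicates 3 and 4. The subunit counts and medians are given with and without these 3 libraries, as are the gene length relations of MI against Sham and GSK against MI.

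In Sham hearts the nuclear subunits were among abundant transcripts. Their Sham means started at 4.66 FPKM (Ndufb2), with a median of 188 FPKM, and 28 of 36 lay above 100 FPKM. The next lowest after Ndufb2 was Ndufab1 (the mitochondrial acyl carrier protein) at 43.6 FPKM. Ndufb2 has a gene length of 5628 nt in the table, and length is the divisor of FPKM. Ndufab1 (6883 nt) and Ndufs1 (8086 nt, 100 FPKM in Sham) are longer. The part of length in the low value of Ndufb2 was not tested. The assembly factors were lower, from 5.13 FPKM (Ndufaf2) to 35.0 FPKM (Ndufaf8) in Sham.

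The promoters of these genes are shown for 4 members because they carry motifs of regulators described below: Ndufa8, Ndufs3 and Ndufb4 were called lower after infarction, and Ndufa11 had the smallest difference of all. NRF1, GABPA (an ETS factor), the estrogen-related receptors and YY1 are regulators known from nuclear respiratory genes. Each line gives the 150 bases before the RefSeq start of the gene on GRCm38.p6 (the build also called mm10), 5′ to 3′ on the gene's strand, with the motif in capitals.
Ndufa8, chr2:36049339-36049488, minus strand, NRF1 core: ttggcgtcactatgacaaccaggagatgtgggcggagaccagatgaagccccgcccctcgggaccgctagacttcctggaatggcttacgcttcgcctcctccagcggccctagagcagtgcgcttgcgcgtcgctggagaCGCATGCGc
Ndufa11, chr17:56717612-56717761, plus strand, NRF1 core: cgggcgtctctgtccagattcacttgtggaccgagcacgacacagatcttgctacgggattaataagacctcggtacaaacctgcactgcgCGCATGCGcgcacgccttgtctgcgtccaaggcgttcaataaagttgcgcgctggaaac
Ndufs3, chr2:90904722-90904871, minus strand, ETS motif: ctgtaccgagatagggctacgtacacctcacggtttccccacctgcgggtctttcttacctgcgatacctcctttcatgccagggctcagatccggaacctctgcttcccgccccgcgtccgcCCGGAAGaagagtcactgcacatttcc
Ndufb4, chr16:37654369-37654518, minus strand, estrogen-related receptor core: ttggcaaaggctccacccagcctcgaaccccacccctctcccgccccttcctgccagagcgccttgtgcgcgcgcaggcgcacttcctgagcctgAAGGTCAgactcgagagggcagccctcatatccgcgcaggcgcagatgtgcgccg

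Motifs were searched on both strands from 250 bases before to 50 bases after the start in the 40 members with a RefSeq promoter entry, and in 8843 promoters of tested genes. The NRF1 core CGCATGCG occurred in 4 of 40 members (10%) and 4.03% of all promoters. The ETS motif CCGGAAG occurred in 6 of 40 (15%) against 18.7%. The estrogen-related receptor core AAGGTCA occurred in 3 of 40 (7.5%) against 2.85%, and the YY1 core AAGATGGC in 8 of 40 (20%) against 4.82%, in all 8 after the start. No match overlapped another, and 20 of the 40 members held none of the 4 motifs. Some members not printed also held a motif in the 150 bases before the start. The ETS motif lay there in Ndufaf1, called lower in MI, and in Ndufb7 and Ndufaf8, which were not called. The NRF1 core lay there in Ndufaf4, called lower. A match describes the letters of a window and is not evidence of binding.

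After infarction the nuclear subunits of complex I were lower. In MI against Sham 25 of 36 subunits fell and none rose, where 21.9% of all 12585 tested genes fell and 21.9% rose (limma on log2(FPKM + 1), Benjamini-Hochberg adjusted p under 0.05). All 36 differences were negative, with a median of -0.57 and a range of -0.91 to -0.05, against a median of -0.02 over all tested genes. In 14 of the 36 subunits all 5 MI libraries lay below all 5 Sham libraries, which held for 14.2% of tested genes. The count was 21, with a median of -0.54, without MI replicate 4 and GSK replicates 3 and 4. It was 15 when the mixed Sham libraries were left out, with a median of -0.58. Over all tested genes, both directions together, 5515 were called in the main fit, and 5844 and 4298 in these fits.

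**Figure D1:**
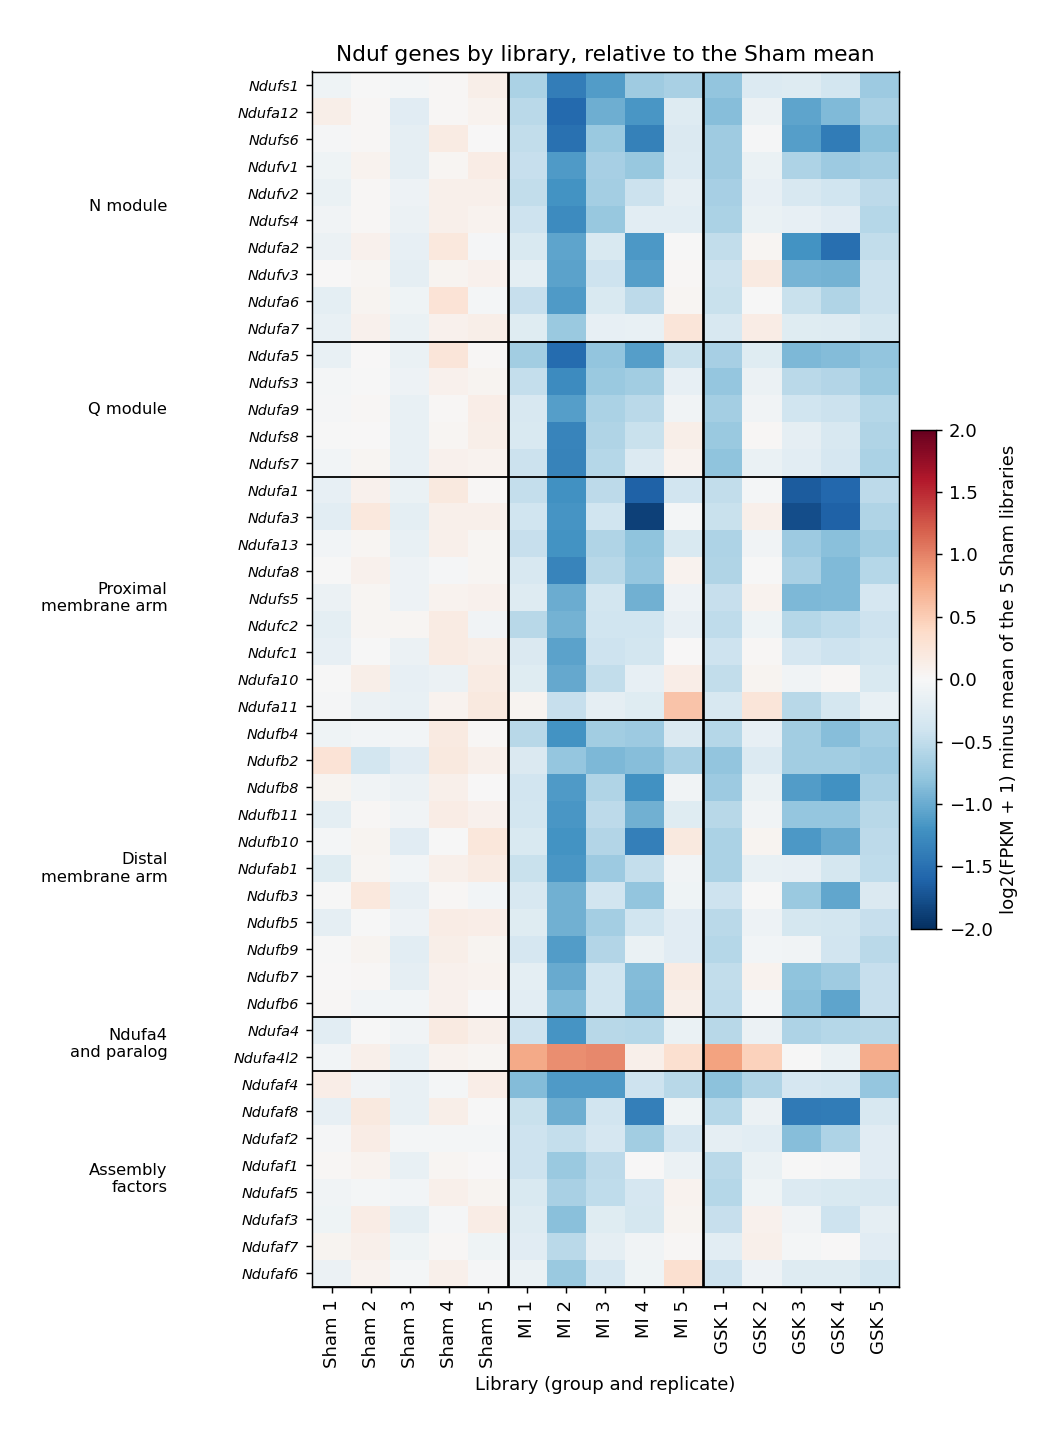
Heat map of the Nduf genes except 1 not reported here (rows, grouped by module of the protein) in the 15 libraries (columns). Colour is log2(FPKM + 1) minus the mean of the 5 Sham libraries. Blue fills most of the MI and GSK columns, most deeply in MI replicate 2, palely in MI replicate 5 and GSK replicate 2, and Ndufa4l2 is the red row.

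The core subunits hold the flavin and the iron-sulfur clusters. Ndufs1, which carries several of the clusters of the N module, measured 93.8, 99.2, 97.5, 102 and 108 FPKM in Sham replicates 1 to 5. In MI it measured 64.1, 37.8, 45.7, 60.6 and 63.2 FPKM, and in GSK 57.5, 82.7, 83.2, 77.6 and 59.9 FPKM. All MI and all GSK libraries lay below the lowest Sham library, while MI and GSK overlapped. The log2 difference of MI from Sham was -0.90 ± 0.15 (SE; limma adjusted p = 0.000345). Ndufs1 lies at chr1:63143596-63176833 on the minus strand, and 498 bases of its exons overlap genes on the other strand, so with the strand setting unknown its value is uncertain to that extent.

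Ndufv1, the subunit that binds NADH and the flavin, fell from 309 ± 26.8 FPKM (SD, n = 5) in Sham to 199 ± 43.9 FPKM in MI, by 0.66 on the log2 scale. Ndufv2 and Ndufs3, further core subunits, fell by 0.60 and 0.66 on that scale. Ndufs7, which carries the terminal cluster before ubiquinone, and Ndufs8, which carries the clusters before it, did not pass. Ndufs7 differed by -0.51 ± 0.21 (limma adjusted p = 0.0585) and Ndufs8 by -0.51 ± 0.21 (limma adjusted p = 0.0621). In both genes MI replicate 5, at 253 FPKM for Ndufs7 and 229 FPKM for Ndufs8, lay within or above the Sham range, and both were called when that library was left out.

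Each module, core and accessory subunits together, held called members. In the N module 7 of 10 subunits fell (median -0.58), in the Q module 4 of 6 (median -0.60), in the proximal membrane arm 6 of 9 (median -0.53) and in the distal membrane arm 8 of 11 (median -0.58). Of all tested genes 21.9% fell. No test compared the modules with one another.

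Ndufa5, an accessory subunit of the Q module, had the largest fall. It measured 337, 378, 342, 443 and 381 FPKM in Sham and 231, 128, 215, 174 and 275 FPKM in MI. The groups did not overlap, and the difference was -0.91 ± 0.19 (limma adjusted p = 0.00123). Ndufa12, an N module subunit that takes the place of the assembly factor Ndufaf2 in the finished enzyme, fell from 145 ± 12.6 to 81.3 ± 28.9 FPKM (SD, n = 5), by 0.90 on the log2 scale. Ndufs6, the zinc-binding subunit of the N module, fell from 290 ± 24.1 to 166 ± 58.2 FPKM, by 0.87.

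Ndufa11, a membrane-arm subunit at the contact with complex III, had the smallest difference. It measured 167, 155, 152, 178 and 194 FPKM in Sham and 176, 122, 148, 142 and 251 FPKM in MI. The MI libraries lay on both sides of the Sham range, replicates 2, 3 and 4 below it, replicate 5 above it and replicate 1 within it. The difference was -0.05 ± 0.18 (limma adjusted p = 0.836), an SE wide enough to hold a moderate change. Ndufa7 of the N module was likewise not called, at -0.21 ± 0.15 (limma adjusted p = 0.277). Ndufa8, with the same NRF1 core as Ndufa11 in its printed promoter, differed by -0.58 ± 0.21 (limma adjusted p = 0.0382). The difference between these genes was not tested.

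Some members have expressed copies that the counting could not be shown to separate. The processed pseudogene Ndufab1-ps reached 74.1 ± 19.4 FPKM in Sham, above Ndufab1 itself, and 49.9 ± 16.2 FPKM in MI. Ndufb4c stood at 16.8 ± 4.74 FPKM in Sham and Ndufs6b at 10.1 ± 2.61 FPKM, so Ndufab1, Ndufb4 and Ndufs6 are uncertain to that extent. In all, 19 of the 46 genes overlap an exon of another gene, 3 of them on the same strand.

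**Figure D2:**
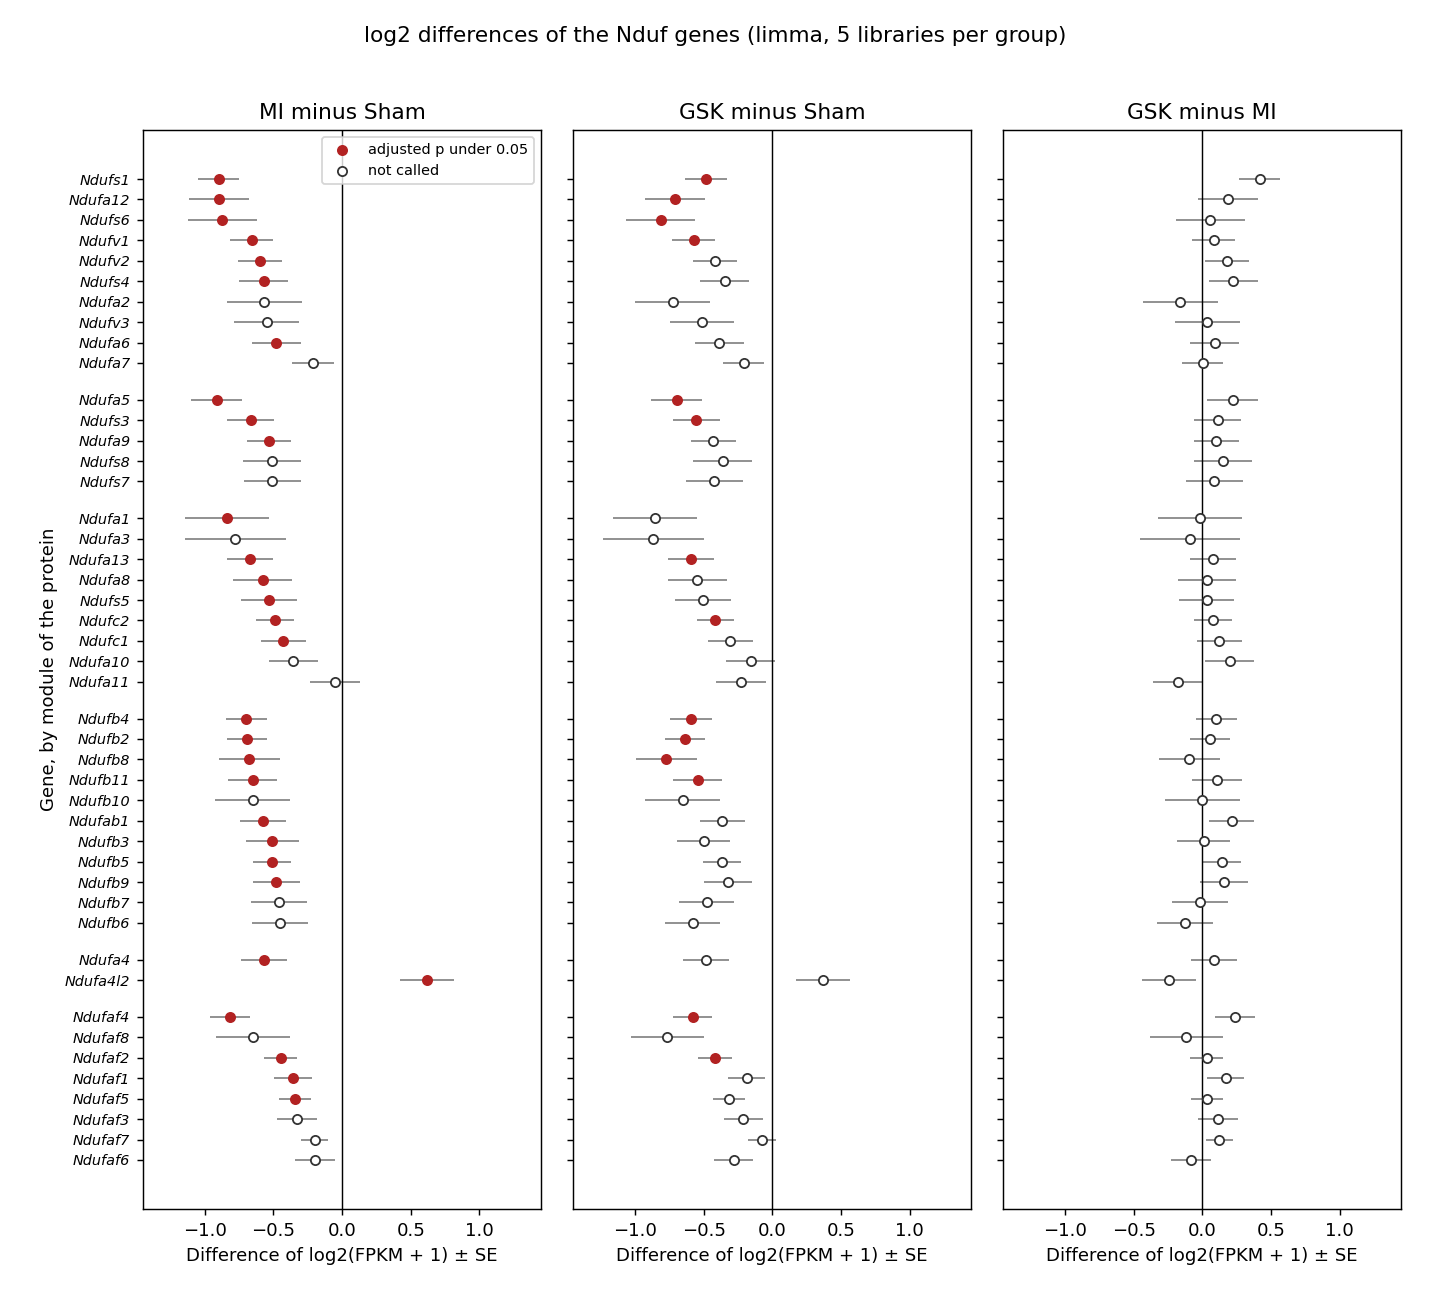
Differences of log2(FPKM + 1) with standard errors for the Nduf genes except 1 not reported here (rows, grouped by module). The 3 contrasts have 5 libraries per group, and filled points have a limma adjusted p under 0.05. In MI against Sham and GSK against Sham every subunit lies to the left of 0, with more points filled in the former, and in GSK against MI none is filled.

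The assembly factors were lower by less. Of the 8 Ndufaf genes 4 fell, Ndufaf4, Ndufaf2, Ndufaf1 and Ndufaf5, where 21.9% of all tested genes fell. All 8 differences were negative, as were 6530 of 12585 over all tested genes, and the median was -0.35. Ndufaf4, which acts with Ndufaf3 on the Q module intermediate, measured 20.5, 17.8, 16.7, 18.1 and 20.6 FPKM in Sham and 9.79, 8.01, 7.98, 13.8 and 12.4 FPKM in MI. The groups did not overlap, and the difference was -0.82 ± 0.14 (limma adjusted p = 0.000441). It was called under all 20 alternatives.

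Ndufaf2, the counterpart of Ndufa12 during assembly, measured 5.04, 5.78, 4.95, 4.92 and 4.94 FPKM in Sham and 3.61, 3.41, 3.87, 2.78 and 3.87 FPKM in MI, again without overlap (-0.45 ± 0.12, limma adjusted p = 0.00795). Of its exons 1955 bases overlap a gene on the other strand. Ndufaf1, a member of the complex that builds the proximal membrane arm, differed by -0.36 ± 0.14 (limma adjusted p = 0.0447) and lost its call under 13 of 20 alternatives. Ndufaf5, which hydroxylates an arginine of Ndufs7, differed by -0.34 ± 0.12 (limma adjusted p = 0.0257) and lost its call under 7. Ndufaf6 and Ndufaf7, the latter a methyltransferase of mitochondria, were both at -0.20 and not called. The assembly factor count was 8 without MI replicate 5, and 2 without Sham replicate 4, Sham replicate 5, MI replicate 2, MI replicate 3 or the mixed Sham libraries.

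Ndufa4 and its paralog Ndufa4l2 differed in direction. Ndufa4 measured 416, 479, 458, 545 and 513 FPKM in Sham and 360, 211, 327, 324 and 440 FPKM in MI, with MI replicate 5 inside the Sham range (-0.57 ± 0.17, limma adjusted p = 0.0135). Under quantile normalization its difference was -0.23 and was not called. Ndufa4l2, whose product is known to be induced in low oxygen, measured 16.05, 17.99, 14.88, 17.57 and 17.16 FPKM in Sham and 28.97, 32.88, 33.36, 18.03 and 21.11 FPKM in MI. It was the single Nduf gene called higher (0.62 ± 0.20, limma adjusted p = 0.0197), where 21.9% of tested genes rose. All 5 MI libraries lay above all 5 Sham libraries, which held for 15.7% of tested genes. MI replicate 4 cleared the highest Sham library by a narrow margin. The call was lost without MI replicate 2 (0.54), without MI replicate 3 (0.53) and without the mixed Sham libraries (0.63). In GSK Ndufa4l2 measured 29.89, 23.37, 16.68, 15.05 and 28.57 FPKM. It differed from Sham by 0.37 ± 0.20 (limma adjusted p = 0.192). Without MI replicate 4 and GSK replicates 3 and 4 that difference was 0.67 and was called. The ratio of Ndufa4 to Ndufa4l2 FPKM was 25.9 to 31.0 in Sham, 6.43 to 20.8 in MI and 10.9 to 21.5 in GSK.

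**Figure D3:**
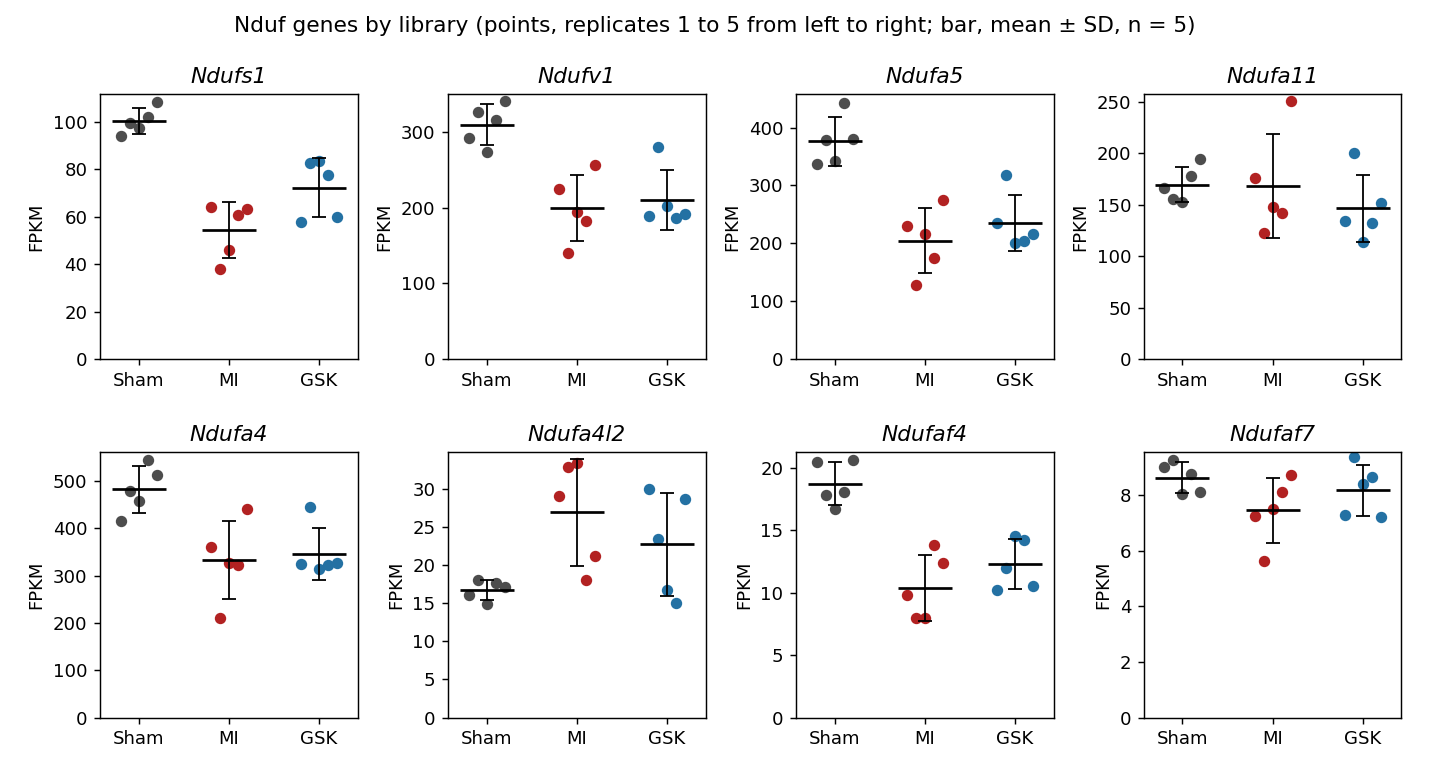
FPKM of 8 Nduf genes in each library (points, replicates 1 to 5 from left to right), with mean and SD (n = 5) for Sham, MI and GSK; axes start at 0. Ndufs1, Ndufv1, Ndufa5 and Ndufaf4 in MI lie below every Sham point, Ndufa11 overlaps, and Ndufa4l2 lies higher in MI.

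The infarcted libraries varied more among themselves than the Sham libraries. The summed FPKM of the 36 subunits was 6425 to 7539 in Sham. It was 5383, 3112, 4764, 4068 and 6549 in MI replicates 1 to 5 and 4656, 6823, 4391, 4194 and 4790 in GSK replicates 1 to 5. MI replicate 5 and GSK replicate 2 were thus within the Sham range, and MI replicate 2 was the lowest of all libraries. By gene, 34, 36, 36, 33 and 16 of the 36 subunits lay below the lowest Sham library in MI replicates 1 to 5. In GSK replicates 1 to 5 the counts were 36, 8, 33, 35 and 36. The matching share of all tested genes was not counted by library. These counts therefore have no background to be read against. Without MI replicate 5 the count of subunits called lower in MI was 33, and without the other libraries it was 17 to 25.

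Cardiomyocyte markers moved beside the subunits from library to library. The median of the 10 markers relative to the Sham mean was -0.36, -0.97, -0.62, -0.63 and -0.05 in MI replicates 1 to 5, beside -0.38, -1.15, -0.58, -0.76 and -0.10 for the subunits. In GSK it was -0.52, -0.11, -0.45, -0.40 and -0.43 beside -0.59, -0.06, -0.63, -0.70 and -0.55. In MI against Sham 6 of the 10 markers fell and 1, Actn2, rose, where 21.9% of all tested genes fell and 21.9% rose. Their summed FPKM was 12292 to 25052 in MI and 15562 to 22723 in GSK.

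Markers of fibroblasts and macrophages moved the other way. Of all tested genes 21.9% rose and 21.9% fell in MI. Of 8 fibroblast and matrix markers 6 rose in MI, with sums of 256 to 361 FPKM in Sham, 734 to 1783 in MI and 449 to 1695 in GSK. All 8 macrophage markers rose, with sums of 273 to 342 FPKM in Sham, 580 to 988 in MI and 404 to 921 in GSK. Of 7 endothelial markers 2 rose and 3 had negative differences. Of 4 mural cell markers 2 rose and 1, Myh11, fell (-0.96). All 3 tested adipocyte markers had negative differences (median -0.86), of which Plin1 was called. The 3 T cell markers summed to at most 0.567 FPKM in any library. The sum of the subunits divided by the sum of the cardiomyocyte markers was 0.287 to 0.334 in Sham, 0.217 to 0.288 in MI and 0.231 to 0.3003 in GSK, so the MI and Sham ranges met at their edges. Of the cardiomyocyte markers Actc1 took a large part of the sum, at 4578 to 9474 FPKM. Actc1 differed by 0.28 in MI against Sham and was not called. The part of tissue composition in the lower Nduf values was not tested.

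**Figure D4:**
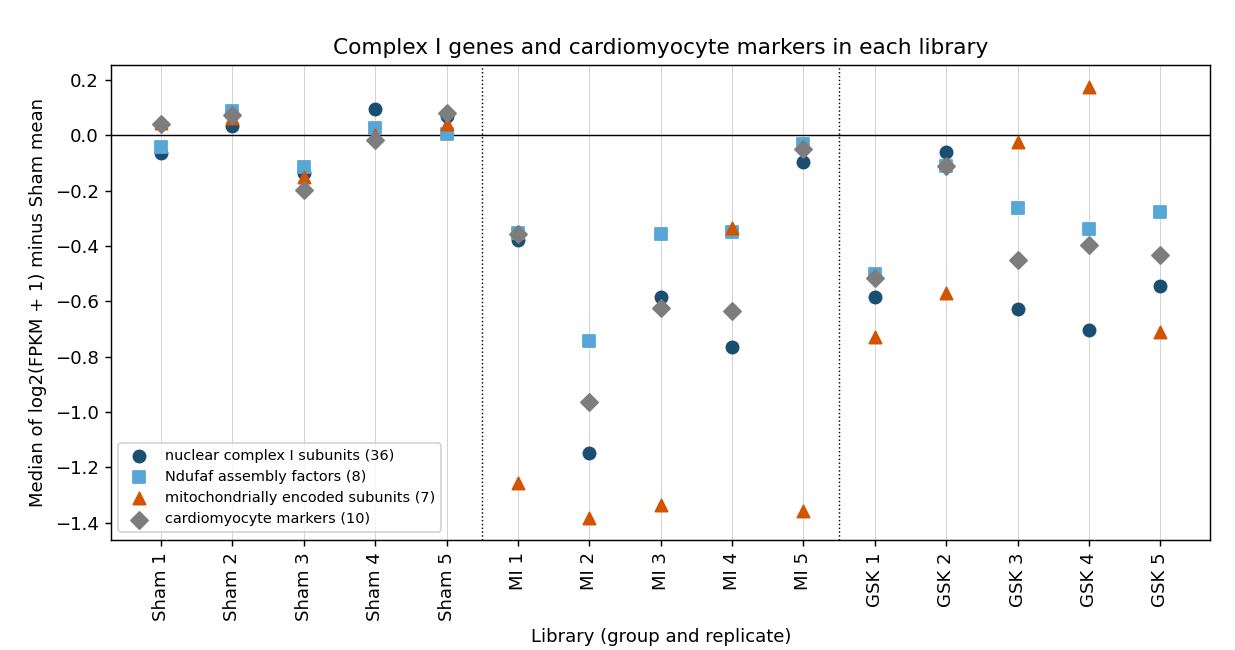
Median of log2(FPKM + 1) minus the Sham mean in each of the 15 libraries for the 36 nuclear subunits, the 8 Ndufaf assembly factors, the 7 mitochondrially encoded subunits and 10 cardiomyocyte markers. The nuclear subunits lie close to the cardiomyocyte markers, at -1.15 and -0.97 in MI replicate 2, while the mitochondrially encoded subunits lie highest in MI replicate 4 and GSK replicates 3 and 4 among the libraries of their groups.

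The mitochondrially encoded subunits did not run parallel to the nuclear ones. All 7 mt-Nd genes fell in MI, where 21.9% of all tested genes fell. Their median was -1.16, or -1.34 without MI replicate 4. mt-Nd1, a subunit of the proximal membrane arm near the ubiquinone site, had means of 25747 ± 1885 FPKM (SD, n = 5) in Sham, 12834 ± 4251 FPKM in MI and 19715 ± 5721 FPKM in GSK. The median of the mt-Nd genes relative to the Sham mean was -1.26, -1.38, -1.34, -0.34 and -1.36 in MI replicates 1 to 5 and -0.73, -0.57, -0.03, 0.18 and -0.71 in GSK replicates 1 to 5. The summed FPKM of the mt-Nd genes was 10.7 to 12.8 times that of the nuclear subunits in Sham. The ratio was 6.49, 10.9, 7.03, 17.9 and 4.86 in MI and 9.99, 7.89, 20.4, 23.3 and 10.6 in GSK. It exceeded the Sham range in the 3 libraries with a high mitochondrial share and was lowest in MI replicate 5, the MI library whose nuclear subunits were least reduced.

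Other genes of the respiratory chain gave counts of the same kind, beside 21.9% of all tested genes that fell. In MI 3 of 4 complex II genes (median -0.71), 4 of 9 nuclear complex III genes (-0.48), 7 of 11 nuclear complex IV genes (-0.55) and 8 of 15 nuclear ATP synthase genes (-0.53) fell, and none rose. The sum of the complex I subunits divided by that of the ATP synthase genes was 1.02 to 1.13 in Sham, 0.972 to 1.14 in MI and 0.917 to 1.07 in GSK. The shift was therefore not seen to be particular to complex I, and no test compared the complexes. Of 13 further assembly factors of complex I 8 fell (median -0.40), beside the same 21.9%. Nubpl, which delivers iron-sulfur clusters, differed by -0.40 ± 0.11 (limma adjusted p = 0.00788) and Tmem126b by -0.39 ± 0.11 (limma adjusted p = 0.00812). Of the import and redox partners Chchd4, Gfer and Aifm1, Aifm1 was called, at -0.53.

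Of 8 regulators of nuclear respiratory genes 6 fell in MI, where 21.9% of all tested genes fell. Ppargc1a, the coactivator of mitochondrial biogenesis, stood at 24.9 ± 14.4 FPKM in Sham, with Sham replicate 1 at 50.5, and 7.63 ± 2.34 in MI (-1.50 ± 0.28, limma adjusted p = 0.000656). Esrra fell by 0.81, Esrrg by 0.87, Gabpa by 0.65, Ppargc1b by 0.59 and Tfam by 0.29 on the log2 scale. Nrf1 was at 0.06 ± 0.06 (limma adjusted p = 0.45) and Yy1 at -0.12 ± 0.07 (limma adjusted p = 0.193).

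Treatment with GSK-343 was not followed by a called change in any Nduf gene. In GSK against MI 0 of 46 genes passed, as did 0 of all 12585 tested genes (0%), and voom on the recovered fragments also called 0 members. Over all tested genes 392 were called without MI replicate 1, 288 without GSK replicate 5, 26 without MI replicate 4, 7 without GSK replicate 1 and 3 with a pseudocount of 0.1, and no subunit or assembly factor was among them. At an unadjusted p under 0.05, which 2638 of 12585 tested genes (21%) met, 1 of the 46 genes was found. Of the 36 subunits 28 had a positive difference, with a median of 0.09 and a range of -0.18 to 0.42, and the assembly factors had a median of 0.07. The direction of the subunit median rested on single libraries. It was -0.05 without MI replicate 2 and -0.01 without GSK replicate 2, and 0.17 without MI replicate 4 and GSK replicates 3 and 4. No member had all 5 GSK libraries above all 5 MI libraries, which 1.15% of tested genes had.

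Ndufs1 was the gene at an unadjusted p under 0.05. Its values, given above, were 54.3 ± 11.9 FPKM in MI and 72.2 ± 12.5 in GSK (SD, n = 5), a difference of 0.42 ± 0.15 (limma adjusted p = 0.155). Ndufaf4 (0.24 ± 0.14, limma unadjusted p = 0.117) and Ndufab1 (0.21 ± 0.17, limma unadjusted p = 0.215) were also among the 4 members of lowest p. Neither was called or under 0.05. Among the related lists, all 7 mt-Nd genes had a positive difference and an unadjusted p under 0.05, with a median of 0.76, and none was called. Without MI replicate 4 and GSK replicates 3 and 4 that median was 0.57. Of the 8 regulators 4 met the unadjusted threshold, namely Gabpa (0.41), Esrrg (0.59), Ppargc1a (0.64) and Ppargc1b (0.31), and none was called. The MI and GSK ranges of the subunit sum overlapped, and a p that misses the threshold does not show that the groups are alike.

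Nuclear subunits were lower in GSK hearts than in Sham hearts. In GSK against Sham 13 of 36 subunits fell and none rose, where 7.58% of tested genes fell and 10.8% rose. All 36 differences were negative, with a median of -0.51 and a range of -0.86 to -0.16. Of the 8 assembly factors 2 fell, Ndufaf4 (-0.58 ± 0.14, limma adjusted p = 0.014) and Ndufaf2 (-0.42 ± 0.12, limma adjusted p = 0.029), with a median of -0.30. In 8 subunits and 3 assembly factors all 5 GSK libraries lay below all 5 Sham libraries, against 7.79% of tested genes. The core subunits Ndufs1 (-0.48), Ndufv1 (-0.57) and Ndufs3 (-0.55) were called, as were Ndufa5 (-0.69), Ndufa12 (-0.71) and Ndufs6 (-0.81). These calls were lost under 13, 9, 14, 6, 12 and 14 of 20 alternatives in that order, with every difference remaining negative. This comparison shares its Sham libraries with MI against Sham, so the 2 sets of differences are not independent.

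The count of 13 depended on which libraries entered. It was 25 without GSK replicate 2, whose subunits lay near Sham, and 2 without MI replicate 4 and GSK replicates 3 and 4, where the median was -0.39. Leaving out any other single Sham or GSK library gave 2 to 7. A fit to the Sham and GSK libraries alone called 26. Over all tested genes, both directions together, 2308 were called in the main fit and 2486 without GSK replicate 2. That number rose to 2707 without MI replicate 4 and GSK replicates 3 and 4, where the subunit count fell to 2. It was 3477 in the fit to Sham and GSK alone.

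Many complex I transcripts are short, and differences were therefore set against length. The gene length in the table, the divisor of FPKM, ran from 419 to 8086 nt over the 46 genes with a median of 1635 nt, against 3977 nt over all tested genes. The length of the principal GENCODE transcript ran from 419 to 4371 nt with a median of 977 nt, against 2997 nt. Across the 46 genes, which are not independent replicates and share their libraries, the MI difference from Sham had almost no relation to gene length (Pearson r = -0.07, Spearman rho = -0.03), or r = -0.21 (rho = -0.19) without MI replicate 4. With transcript length the MI difference had r = -0.10 (rho = -0.08), or r = -0.27 (rho = -0.28) without MI replicate 4. Members under 800 nt of transcript had a median of -0.52, those of 800 to 1200 nt -0.54 and those above -0.57. In that order 10 of 18, 8 of 12 and 12 of 16 were called lower. Over all tested genes of those lengths the counts were 76 of 369, 146 of 708 and 2223 of 10162. Their medians were -0.11, 0.005 and -0.006.

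The difference of GSK from MI did vary with length, and so did the 3 libraries that stood apart. The GSK difference from MI had r = 0.52 (rho = 0.48) with gene length and 0.61 (rho = 0.67) with transcript length, against 0.13 and 0.23 over all tested genes. Without MI replicate 4 and GSK replicates 3 and 4 these values were 0.06 (rho = -0.01) and 0.12 (rho = 0.12), against 0.07 and 0.16 over all tested genes. MI replicate 4 minus the other MI libraries had r = 0.54 with transcript length, and GSK replicates 3 and 4 minus the other GSK libraries r = 0.64, against 0.21 and 0.31 over tested genes. These 2 deviations come from libraries that do not overlap, and they correlated with r = 0.96 across the 46 genes, against 0.59 across all tested genes.

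Several short transcripts were among the most reduced in those libraries. Ndufa3, a small membrane-arm subunit, measured 163, 219, 164, 203 and 202 FPKM in Sham. It measured 144, 83.2, 143, 50.8 and 183 FPKM in MI and 138, 203, 54.5, 61.2 and 125 FPKM in GSK. MI replicate 4 and GSK replicates 3 and 4 held its lowest values, deviating by -1.37 and -1.38 from the rest of their groups. The deviations were -0.97 and -1.27 for Ndufa1, -0.89 and -1.07 for Ndufaf8 and -0.72 and -1.04 for Ndufa2. The long transcripts of Ndufs1 (0.23 and 0.28) and Ndufaf4 (0.51 and 0.37) deviated upward. The pattern was loose. Among short transcripts Ndufb9 (704 nt) deviated by 0.43 and 0.16 and Ndufa7 (528 nt) by 0.08 and -0.08. Among longer ones Ndufv3 (1582 nt) deviated by -0.68 and -0.71 and Ndufb2, the longest at 4371 nt, by -0.20 and -0.10. Of the 16 members of 1200 nt or more 7 were negative in each deviation. Members under 800 nt had median deviations of -0.52 and -0.63, and the longest class 0.10 and 0.06. Across all tested genes the deviations also fell with the GC content of the transcript (r = -0.54 and -0.47), which among the 46 genes was weaker (r = -0.35 and -0.29). With the trend on gene length removed within each library 28 subunits were called lower in MI and 12 in GSK. The labels give an RNA integrity number above 8 and 1000 ng of RNA for all 15 libraries. The part of RNA quality or library preparation in these deviations was not tested.

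**Figure D5:**
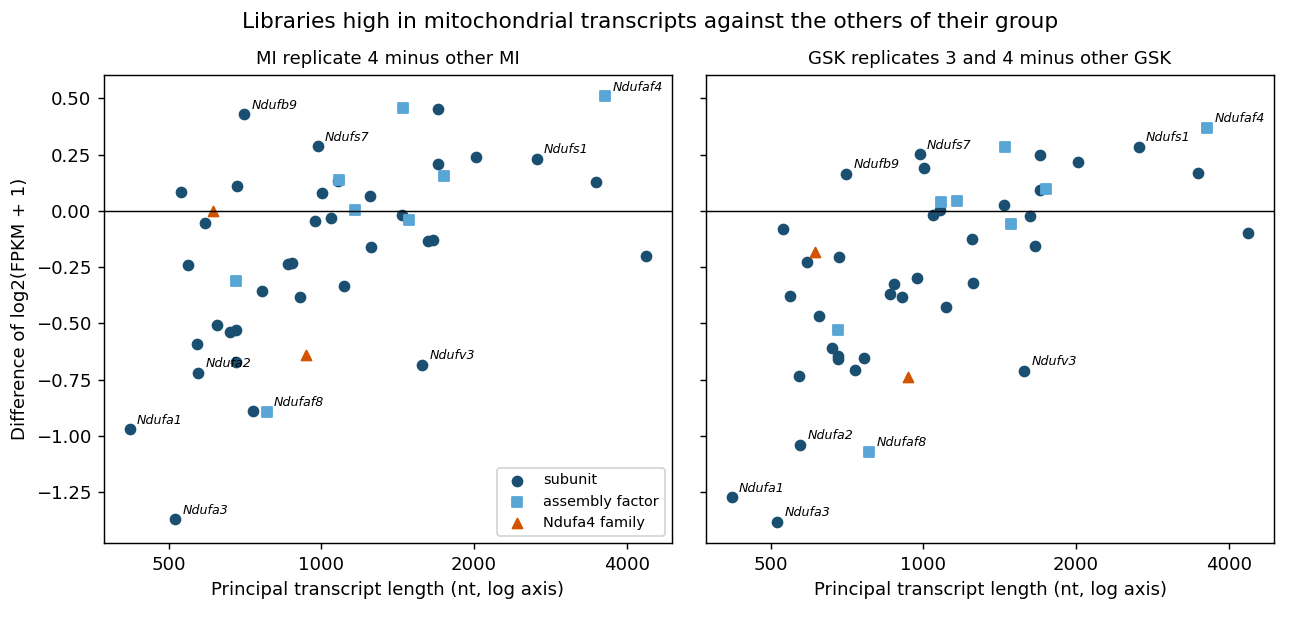
Deviation of MI replicate 4 from the other MI libraries (left) and of GSK replicates 3 and 4 from the other GSK libraries (right), as differences of log2(FPKM + 1), against the length of the principal transcript (log axis) for the 46 Nduf genes. Ndufa3 and Ndufa1 lie lowest in the left panel and, with Ndufaf8 and Ndufa2, in the right, and Ndufaf4 and Ndufs1 above 0.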

How the data were processed

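The authors deposited FPKM values per gene with gene lengths and coordinates (mm10). The submitters' processing notes name Subread (featureCounts), HISAT2, R 3.5.1 and DESeq2 without roles; for the annotation release and strand setting nothing is stated in the labels. Values times gene length were whole multiples of a step per library (100% within 0.01 of a whole number), and the scaling total equalled 23.6 M times a median-of-ratios factor, so values are relative to the median gene. Depth was 21.5 M to 26.8 M fragments per library.

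Here log2(FPKM + 1) was fitted for 12585 genes (1 FPKM or more in 5 or more of 15 libraries) with limma 3.58.1 (R 4.3.3; group means over all 15 libraries, eBayes with trend). Adjusted p-values are Benjamini-Hochberg over all these genes, called under 0.05. The pseudocount of 1 understates changes of low genes. The fit was tested on simulated data. Members, lists and tests were chosen with earlier results of these data known; the transcript length and GC checks were added after values were seen. Each library was taken as a separate sample as labelled.

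Named genes are the nuclear core subunits (1 is not reported here), the 4 largest and 4 smallest differences of MI from Sham, the member called higher, Ndufa4, the called assembly factors and the 4 lowest p in GSK against MI. Ndufa8, Ndufa3 and the other genes of the length comparison were chosen after their values were seen. Ndufb7 was named for its promoter motif. Alternatives were a pseudocount of 0.1, no filter, quantile normalization, mitochondrial genes left out, a length trend removed, 2-group fits, voom on recovered fragments, a replicate block, and libraries left out. Transcripts came from GENCODE vM21 (42 of 46 members at the same coordinates) and promoters from RefSeq (40 of 46 members).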

Additional observations from a re-analysis of the deposited data

Results flagged for a closer look

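Of 63 sets of 5 libraries (21 genes in 3 groups), 4 held a library far from the other 4 by Dixon's criterion; chance flags about 1 in 20. In 3 of them GSK replicate 2 was the high library: Ndufv1 at 279.9 FPKM (next 201.7), Ndufa7 at 86.0 FPKM (next 65.1) and Ndufa4 at 444.3 FPKM (next 326.3). The fourth was Ndufaf2 in Sham replicate 2, a library that mixes RNA of 2 mice, at 5.78 FPKM (next 5.04).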

How the results depend on the processing

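In MI against Sham the count of subunits called lower stayed within 1.5 times 25 under the alternatives run, except 15 without the mixed Sham libraries, and was 17 to 33 with single libraries left out. The assembly factor count of 4 became 2 without the filter, 2 without the mixed Sham libraries, and 2 to 8 with single libraries left out. In GSK against Sham the subunit count of 13 became 3 without the filter, 5 under quantile normalization, 26 in the 2-group fit, 2 without the mixed Sham libraries, 2 without MI replicate 4 and GSK replicates 3 and 4, and 2 to 25 with single libraries left out. The assembly factor count of 2 became 1 without the filter, 1 with mitochondrially encoded genes left out, 5 in the 2-group fit, 0 without the mixed Sham libraries, and 1 to 4 with single libraries left out. Leaving out libraries lowers the number of samples, and the counts moved in both directions. The cause of the shifts was not tested. In GSK against MI the counts of subunits and of assembly factors were 0 in every alternative. Of the single-gene values 391 of 420 stayed on their side of the threshold in MI against Sham, 399 of 399 (none called) in GSK against MI and 318 of 420 in GSK against Sham. No called difference changed sign; of those not called 1, 10 and 1 of 21 genes did under some alternative. The replicate numbers did not pair the libraries (correlations of same-numbered libraries -0.41 to 0.49); a replicate block gave 19 subunits in MI and 3 in GSK against Sham. The pseudocount weighs on low genes such as Ndufb2 (1.99 to 5.76 FPKM) and Ndufaf2 (2.40 to 5.78 FPKM).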
